A study of Homo sapiens with 6 samples.

Results

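The transcripts of 35 amino acid carrier genes were examined in A375 cells, a human melanoma line, of the 58302 genes listed in the count tables. The genes were chosen by function, as carriers of the plasma membrane, the lysosome and the mitochondrion, with results of the comparison below already known. Their fold changes, calls and p-values are therefore a description of this contrast and not independent evidence for it. All 35 were found by symbol.

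Bulk RNA sequencing was available for 6 libraries, 3 from a line with an empty vector and 3 from a line that overexpresses HMGB2, a chromatin protein that bends DNA. Both lines were made by lentiviral transduction of A375, and nothing else in the labels separated them. The replicates were cell pellets that the study's reporting form calls technical, so the p-values measure the spread between pellets of a line and not between transductions. Neither the promoter that drives HMGB2 in these cells nor whether a line is a single clone is given in the sources used here. HMGB2 itself had 7250, 7729 and 7562 normalized counts with the empty vector and 15095, 16848 and 14609 with overexpression. A normalized count is a read count divided by the size factor of its library, which removes differences in depth. Assigned reads ran from 45925053 to 56755212 per library. Among markers of the melanocyte lineage, CSPG4, PRAME, S100B and MITF were expressed. MLANA, TYR and DCT, which mark pigmented cells, were at or near 0, and SOX10 was listed at 0. PMEL, also a pigment gene, had 49.6 to 67.0 normalized counts over all libraries. It kept 3.37% of the reads that the stranded columns assigned to it, so its level is uncertain. MIA had 13.5 to 26.8. Of the 10 lineage markers 7 were tested, and CSPG4 was called lower (DESeq2 adjusted p = 0.0446), where 2.64% of all genes tested were. The summed level of the 10 ran from 56502 to 87362 with the empty vector and from 48518 to 59608 with overexpression. Most of that sum was CSPG4, with 73844, 73004 and 42385 against 45253, 42954 and 33872, and its groups overlapped. PRAME, S100B and MITF, the next most abundant, had log2 fold changes of 0.09, 0.11 and 0.17 and were not called. Of 13 markers of other cell types 10 were tested, with DESeq2 adjusted p of 0.184 or more when all libraries were used. KRT5, a basal keratin, had 5.05, 11.5 and 279 normalized counts with the empty vector and 249.8, 199.9 and 289 with overexpression, so empty vector replicate 3 lay among the overexpression libraries. In replicates 1 and 2 alone, a fit also used for carriers below, KRT5 and the collagen gene COL1A1 were called higher (adjusted p = 4.27e-24 and 8.61e-08). The summed level of the 13 ran from 3403 to 5463 and from 4916 to 6574, PTPRC was at 0, and the group means of CD3E and CD79A were under 3. LYZ, a myeloid marker, had 521, 488 and 515 normalized counts with the empty vector and 526, 561 and 701 with overexpression. It was higher in every overexpression library without a call (DESeq2 adjusted p = 0.542), and kept 58.1% of its stranded reads. KRT14, EPCAM, COL3A1, DCN and LUM were also detected, with group means from 104 to 548. Whether these markers had a part in the results was not tested.

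Amino acid carriers are membrane proteins that set the supply of amino acids for protein synthesis, redox balance and nitrogen metabolism. The large neutral amino acid carrier SLC7A5 (LAT1) works as a pair with the heavy chain SLC3A2, and several other light chains of the SLC7 family, including the cystine carrier SLC7A11 (xCT), use the same heavy chain. When amino acids run short, the kinase GCN2 raises translation of the transcription factor ATF4, which activates genes of amino acid uptake, synthesis and tRNA charging, many of them through a short DNA element called the amino acid response element.

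The promoters of the carriers are shown first, with their matches to this element. Whether the element had a part in the differences below was not tested. Promoter windows from RefSeq (GRCh38.p14), from 250 bases before to 50 bases after each annotated start, were found for 28 of the 35 genes, in 52 windows. The element was searched on both strands as TGATGNAA, where N is any base. It occurred in 3.62% of 35116 windows, or in 4.46% of 27305 genes. Among the carriers it occurred in 6 of the 28 genes. Of the 8 carriers called lower below, 7 had a window, and 4 of these held the element. The stretches around the 6 matches are given 5′ to 3′ along the gene, with the match in capitals. Distances are from the RefSeq start. In SLC1A4 and SLC3A2 the match lies on the opposite strand and reads as its reverse complement.

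SLC1A4: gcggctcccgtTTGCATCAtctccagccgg
SLC1A5: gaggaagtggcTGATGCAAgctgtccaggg
SLC3A2: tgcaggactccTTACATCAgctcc
SLC38A1: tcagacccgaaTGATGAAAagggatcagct
SLC7A1: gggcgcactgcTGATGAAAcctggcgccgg
SLC1A3: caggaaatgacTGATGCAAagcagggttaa

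The SLC1A4 stretch lies at chr2:64989381-64989410 on the plus strand and its match begins 7 bases before the start, running into the transcript. The SLC1A5 stretch lies at chr19:46784893-46784922 on the minus strand and belongs to an internal start of that gene, 97 bases before it. The SLC3A2 stretch lies at chr11:62881725-62881748 on the plus strand, where the match begins at base 38 of the transcript. The stretch of SLC38A1 lies at chr12:46266502-46266531 and that of SLC7A1 at chr13:29595663-29595692, both on the minus strand. The SLC1A3 stretch lies at chr5:36596357-36596386 on the plus strand. The stretches of SLC1A4, SLC3A2 and SLC38A1 also belong to internal starts. The outermost annotated starts of these genes lie at 64988477, 62856004 and 46270017. The SLC7A1 stretch spans the outermost start of its gene (29595688), and the SLC1A3 stretch lies before that of its gene (36596588). A match is a run of letters and not a measured binding site.

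SLC7A5, the most abundant carrier, held no such match in the windows searched, and neither did SLC38A2, the most abundant carrier that was not called. Elements elsewhere, such as in introns, were not searched, so neither gene is shown to lack one. Their 250 bases before the start are given for comparison, with any match to TGATGNAA, to the E-box CACGTG or to the AP-1 motif TGANTCA in capitals. The SLC7A5 window lies at chr16:87869508-87869757 and the SLC38A2 window at chr12:46372774-46373023, both on the minus strand.

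SLC7A5: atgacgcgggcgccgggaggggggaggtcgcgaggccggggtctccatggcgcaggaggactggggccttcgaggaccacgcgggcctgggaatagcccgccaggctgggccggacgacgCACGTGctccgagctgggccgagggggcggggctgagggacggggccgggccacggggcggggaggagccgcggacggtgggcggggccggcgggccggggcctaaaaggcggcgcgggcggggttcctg
SLC38A2: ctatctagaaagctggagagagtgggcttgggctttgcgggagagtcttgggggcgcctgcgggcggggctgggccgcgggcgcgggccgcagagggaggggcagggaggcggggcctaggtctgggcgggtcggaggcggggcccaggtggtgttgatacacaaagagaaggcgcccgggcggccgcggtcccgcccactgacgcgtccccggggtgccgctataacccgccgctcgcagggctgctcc

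The capitals in SLC7A5 are the E-box, 130 bases before the start. The E-box occurred in 10 of the 28 carriers and in 8.77% of all genes, and in 3 of the 7 carriers called lower. The AP-1 motif occurred in 8 of the 28 and in 9.37% of all genes, and in 2 of the 7. Per window over all genes, the E-box occurred in 7.26% and the AP-1 motif in 7.71%. The 28 carriers had 52 windows, and the 27305 genes had 35116. Carriers thus had more windows per gene, and shares per gene are not compared on equal terms. This also holds for the amino acid response element. These letters say nothing on whether a factor was bound.

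The question of which carrier transcripts differ with HMGB2 was addressed in a fit across all genes. Of the 35 carriers, 34 received an adjusted p, and 33 had a mean normalized count of 10 or more. DESeq2 called 8 carriers lower and 1 higher at an adjusted p under 0.05 over all genes, and 25 were not called. The carriers called lower were SLC7A5, SLC3A2, SLC6A9, SLC1A4, SLC1A5, SLC43A1, SLC7A11 and SLC38A1, and the one called higher was SLC38A4. Among all 18836 genes with an adjusted p, 2.64% were called lower and 2.29% higher, or 4.94% in either direction. The median log2 fold change was -0.09 over the 34 carriers and 0.00 over all genes tested. In 9 of the 33 carriers every overexpression library lay below every empty vector library, and in 4 every one lay above. Over 16692 genes with a mean of 10 or more, 11.4% did so in each direction.

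**Figure D1:**
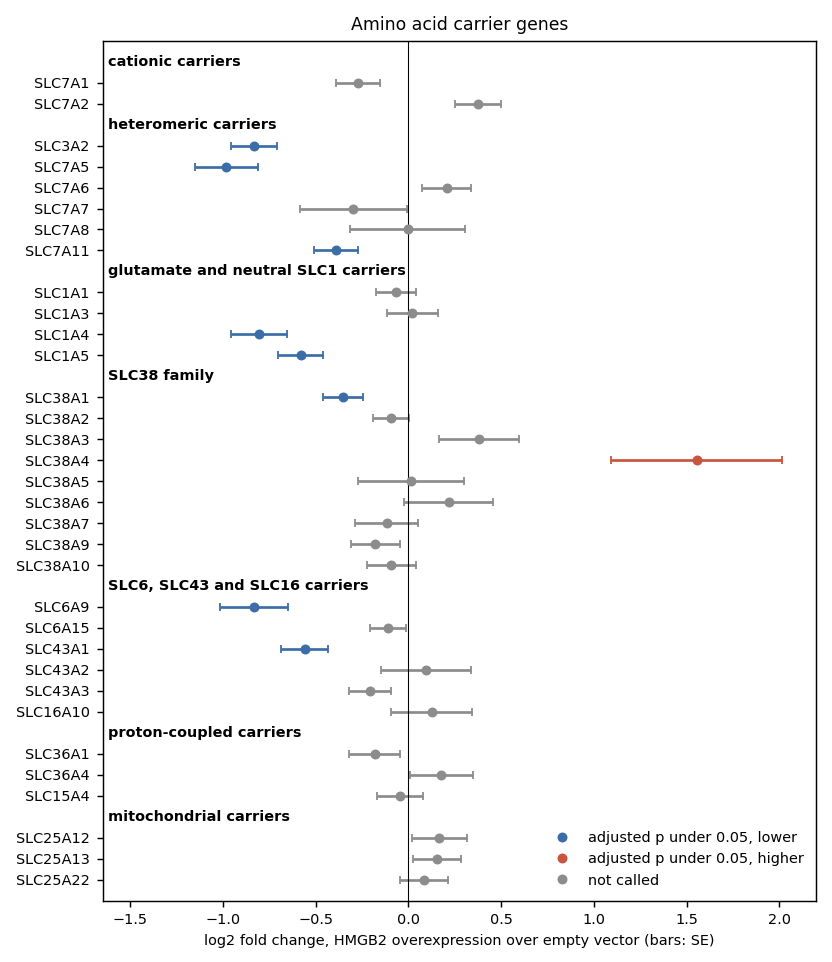
Log2 fold change of HMGB2 overexpression over empty vector (x axis) for the 33 amino acid carriers whose normalized counts averaged 10 or more, by family, with bars of 1 SE of the DESeq2 model. The 8 carriers called lower lie between -0.98 and -0.35, SLC38A4 lies at 1.55 with a wide bar, and the proton-coupled and mitochondrial carriers lie near 0.

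Within the families, the calls were uneven. Heteromeric carriers held 3 lower calls among 6 genes, the SLC1 family 2 among 5, and the group of SLC6, SLC43 and SLC16 carriers 2 among 6. The SLC38 family held 1 lower and 1 higher call among 9. The cationic carriers (2 tested of 3), the 3 proton-coupled carriers and the 3 mitochondrial carriers held none. The members called lower had mean normalized counts from 1481 to 57998, and the 24 uncalled members with a mean of 10 or more had means from 53.6 to 26427. In bulk RNA, fewer cells with a transcript and less of it per cell cannot be told apart.

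The heteromeric pair of SLC7A5 and SLC3A2 was called lower, with the largest fall among the called carriers in SLC7A5. SLC7A5 (ENSG00000103257; chromosome 16, 87830023 to 87869507, minus strand on hg38) had 87698, 82286 and 61110 normalized counts with the empty vector, in replicate order. It had 42636, 42562 and 31692 with overexpression. Every overexpression library lay below every empty vector library, and replicate 3 was the lowest of each group. The log2 fold change was -0.98 with an SE of 0.17 (adjusted p = 1.11e-06, DESeq2), a fall of 49.4%. Of its 50-base words, 3.90% also occur in other genes in the same orientation, among them the pseudogene SLC7A5P2, so a small part of its reads is uncertain.

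SLC3A2 (ENSG00000168003; chromosome 11, 62856004 to 62888880, plus strand) encodes the heavy chain that brings SLC7A5 and its relatives to the cell surface. It had 43734, 41043 and 37327 normalized counts with the empty vector and 24849, 23752 and 19964 with overexpression. The groups did not overlap. Its log2 fold change was -0.83 with an SE of 0.12 (adjusted p = 3.7e-09, DESeq2), a fall of 43.8%.

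SLC7A11 (ENSG00000151012; chromosome 4, 138164097 to 138242349, minus strand), which imports cystine for glutathione synthesis in exchange for glutamate, had 5186, 5540 and 5200 normalized counts with the empty vector. It had 4594, 3901 and 3643 with overexpression, and kept 87.6% of its stranded reads. The groups did not overlap, but the difference was smaller than for the pair above. The fit gave a log2 fold change of -0.39 with an SE of 0.12 (adjusted p = 0.027, DESeq2). With edgeR the adjusted p was 0.0931. Leaving out a library ended the call for empty vector replicates 1 and 2 (0.185 and 0.238) and overexpression replicates 2 and 3 (0.257 and 0.329). In replicates 1 and 2 alone it stood (adjusted p = 0.00118).

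The other light chains were scarce. SLC7A6 had 407 to 478 normalized counts with the empty vector and 506 to 539 with overexpression, without overlap and without a call (log2 fold change 0.21, DESeq2 adjusted p = 0.534). It kept 29.6% of the reads that the stranded columns assigned to it, with SLC7A6OS on the opposite strand. In the sum of those columns its log2 fold change was 0.01, and that sum can include reads of SLC7A6OS. SLC7A7 and SLC7A8 had between 46.1 and 93.4 normalized counts in all libraries, and their groups overlapped.

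The balance between light and heavy chains was then taken per library, as reads per kilobase of exon union relative to SLC3A2. The level of a ratio depends on the length chosen: with the longest transcript of each gene the empty vector mean was 1.17 in place of 2.53 for SLC7A5 and 0.0386 in place of 0.0868 for SLC7A11. The ratio of SLC7A5 to SLC3A2 was 2.69, 2.69 and 2.197 with the empty vector and 2.30, 2.40 and 2.13 with overexpression. These values overlapped, and the log2 difference was -0.14 (exact two-sided permutation p = 0.3, 3 libraries against 3, where the smallest possible p is 0.1). The ratio of SLC7A11 to SLC3A2 was 0.0786, 0.0895 and 0.0923 with the empty vector and 0.123, 0.109 and 0.121 with overexpression. It was higher in every overexpression library, by 0.44 on the log2 scale (exact permutation p = 0.1, the smallest possible). The log2 difference of the scarce light chains was 1.04 for SLC7A6, 0.52 for SLC7A7 and 0.80 for SLC7A8 (exact permutation p = 0.1, 0.2 and 0.1), and the SLC7A7 ratios overlapped. Each ratio contains the fall of SLC3A2, and SLC7A8 itself had a log2 fold change of -0.01. Adjusted p-values over these 5 ratios could not pass a threshold of 0.05, since none of the raw values could.

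**Figure D2:**
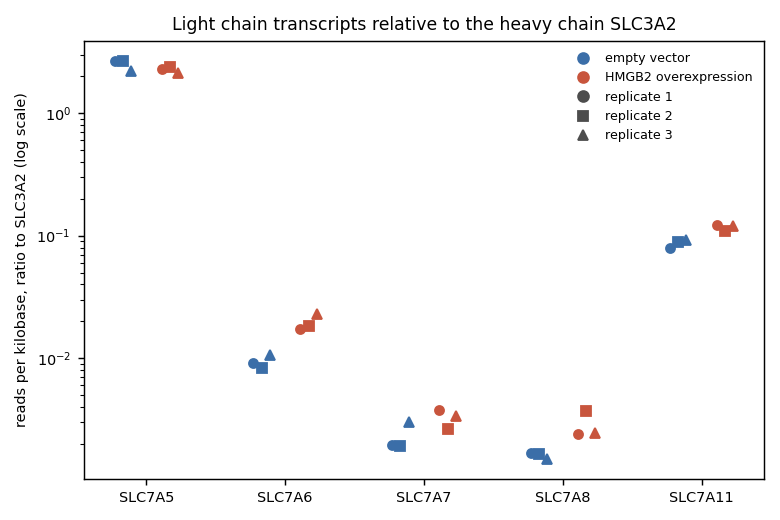
Reads per kilobase of each light chain gene divided by those of the heavy chain gene SLC3A2 (y axis, log scale), with 1 point per library. With the exon union as length, the group means were 2.53 and 2.28 for SLC7A5, whose points overlap, and 0.0868 and 0.117 for SLC7A11, whose points do not.

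In the SLC1 family the neutral carriers were lower and the glutamate carriers were not called. SLC1A4 (ENSG00000115902; chromosome 2, 64988477 to 65023865, plus strand), a carrier of alanine, serine and cysteine, had 12092, 11710 and 9616 normalized counts with the empty vector and 7225, 6613 and 5254 with overexpression. The groups did not overlap, and replicate 3 was again the lowest of each. This was a log2 fold change of -0.81 with an SE of 0.15 (adjusted p = 9.66e-06, DESeq2), a fall of 42.9%. SLC1A5 (ENSG00000105281; chromosome 19, 46774883 to 46788594, minus strand), a main route of glutamine entry in many tumour cells, had 30208, 27992 and 25899 with the empty vector and 20419, 19417 and 16390 with overexpression. Its groups were also separate, with a log2 fold change of -0.58 with an SE of 0.12 (adjusted p = 0.000161, DESeq2). SLC1A5 kept 67.7% of its stranded reads, and in the stranded sum its log2 fold change was -0.56. Of the glutamate carriers, SLC1A1 had 2617 to 3087 normalized counts and SLC1A3 434 to 520 over all libraries, with overlapping groups and log2 fold changes of -0.07 (SE 0.11) and 0.02 (SE 0.14). SLC1A2, the main glutamate carrier of astrocytes, had 15 reads in the empty vector libraries together and 12 in the overexpression libraries.

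The SLC38 genes carry small neutral amino acids such as glutamine and alanine, and 3 of them lie in one region of chromosome 12. SLC38A1 (ENSG00000111371; 46183063 to 46270017, minus strand) had 12944, 14275 and 12074 normalized counts with the empty vector and 10922, 10107 and 9738 with overexpression. Its groups were separate by a narrow gap. The log2 fold change was -0.35 with an SE of 0.11 (adjusted p = 0.0291, DESeq2). It did not hold with edgeR (0.0913), without the independent filter (0.0506) and without any 1 library other than empty vector replicate 3 (0.143 to 0.332), and it stood in replicates 1 and 2 alone (3.49e-06).

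SLC38A2 (ENSG00000134294; 46358188 to 46372773, minus strand), the family member best known to respond to amino acid shortage, had 26030, 29209 and 26631 normalized counts with the empty vector and 26927, 24480 and 25285 with overexpression. Its groups overlapped. Its log2 fold change was -0.09 with an SE of 0.10 (adjusted p = 0.777, DESeq2), and it was called in none of the alternative fits. SLC38A4 (ENSG00000139209; 46764761 to 46832408, minus strand), a carrier best known from liver, was scarce, with 14.1, 7.97 and 26.8 normalized counts with the empty vector and 40.9, 56.1 and 45.0 with overexpression. Every overexpression library lay above, on 48 reads in all against 142. The fit gave a log2 fold change of 1.55 with an SE of 0.46 (adjusted p = 0.0207, DESeq2). It did not hold with edgeR (0.0805) or without any 1 library other than empty vector replicate 3 (0.11 to 0.262), and it stood in replicates 1 and 2 alone (0.00508).

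The other SLC38 genes were not called. SLC38A9, the lysosomal arginine sensor that acts on mTORC1, had 1577, 1624 and 1973 normalized counts with the empty vector and 1592, 1406 and 1574 with overexpression, which overlapped. SLC38A7 and SLC38A10 also overlapped, with log2 fold changes of -0.12 and -0.09. The scarcer SLC38A3, SLC38A5 and SLC38A6 had between 47.8 and 248 normalized counts. SLC38A3 was higher in every overexpression library without a call (log2 fold change 0.38, SE 0.21, DESeq2 adjusted p = 0.431).

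Among the remaining plasma membrane carriers, SLC6A9 and SLC43A1 were called lower. SLC6A9 (ENSG00000196517; chromosome 1, 43991500 to 44031467, minus strand), a glycine carrier, had 4116, 3759 and 2819 normalized counts with the empty vector and 2359, 2060 and 1584 with overexpression. The groups did not overlap, with empty vector replicate 3 nearest to the overexpression libraries. This was a log2 fold change of -0.83 with an SE of 0.18 (adjusted p = 0.000369, DESeq2). SLC43A1 (ENSG00000149150; chromosome 11, 57484534 to 57515780, minus strand), a facilitative carrier of branched-chain amino acids, had 1908, 1724 and 1666 with the empty vector and 1274, 1276 and 1041 with overexpression. Its groups were separate, with a log2 fold change of -0.56 with an SE of 0.13 (adjusted p = 0.000792, DESeq2), and the call was lost without empty vector replicate 1 (0.0619).

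SLC43A3, which is named for its family but is known as a carrier of purine nucleobases, had 4075, 4054 and 3437 normalized counts with the empty vector and 3342, 3459 and 3215 with overexpression. Its groups overlapped at empty vector replicate 3, and it was not called (log2 fold change -0.21, DESeq2 adjusted p = 0.393). It was called without that library (0.0121), with the third replicates as a model term (0.0201) and from replicates 1 and 2 alone (0.00408). Of its 50-base words, 24.3% also occur in other genes in the same orientation, so its counts are uncertain. SLC6A15, SLC43A2 and SLC16A10, carriers of branched-chain, large neutral and aromatic amino acids, had overlapping groups and log2 fold changes of -0.11, 0.10 and 0.12.

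The cationic carriers bring in arginine, lysine and ornithine. SLC7A1, their main housekeeping form (ENSG00000139514; chromosome 13), had 15037, 14765 and 12369 normalized counts with the empty vector and 12153, 11975 and 10754 with overexpression. It was lower in every overexpression library and was not called (log2 fold change -0.27, SE 0.12, DESeq2 adjusted p = 0.206). SLC7A2 (ENSG00000003989; chromosome 8) had 885, 944 and 1082 with the empty vector and 1245, 1193 and 1337 with overexpression. It was higher in every overexpression library and lay just outside the threshold (log2 fold change 0.38, SE 0.13, DESeq2 adjusted p = 0.0536), where SLC38A1 at 0.0291 lay just inside. Without empty vector replicate 3 both were called (adjusted p = 0.00092 for SLC7A1 and 0.000792 for SLC7A2), and in replicates 1 and 2 alone as well (5.55e-06 and 0.00166). With all libraries kept, both were called with the third-replicate term (4.4e-05 and 0.000362), and SLC7A2 with TMM factors (0.0481) and the count minimum (0.0437). SLC7A3 had 10 reads in the empty vector libraries together and 2 in the overexpression libraries, and received no adjusted p.

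**Figure D3:**
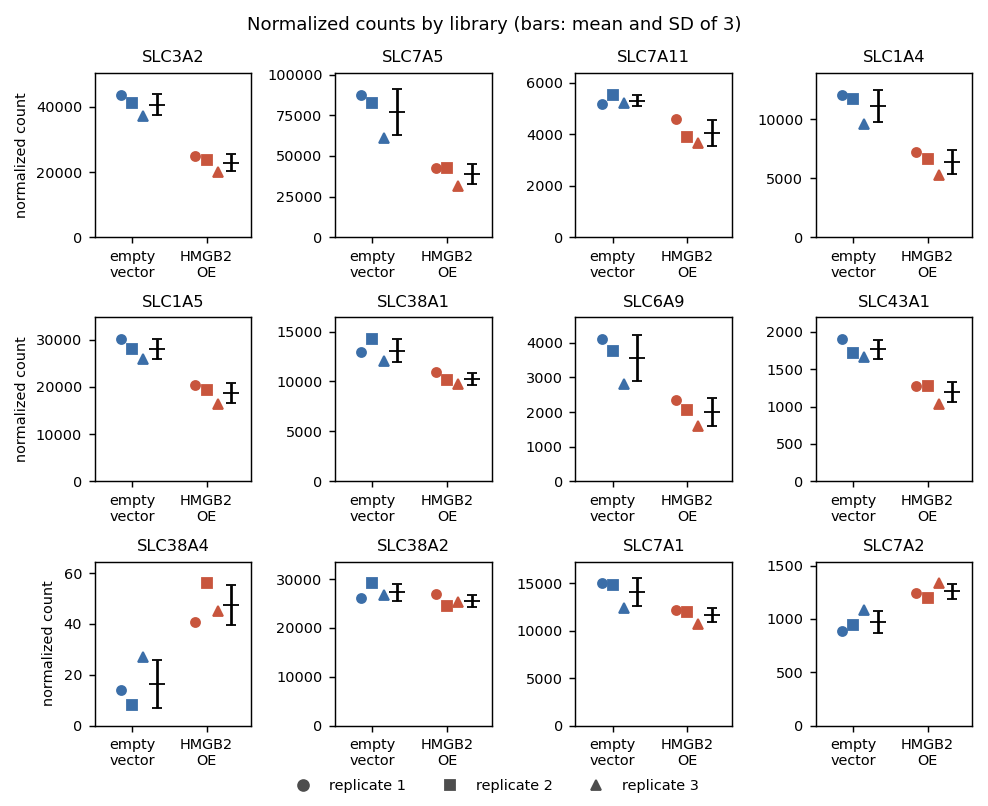
Normalized counts (y axes, each from 0) in the 6 libraries for the 9 called carriers and for SLC38A2, SLC7A1 and SLC7A2, with the mean and SD of 3 libraries beside each group. The overexpression libraries lie below all empty vector libraries for the 8 carriers called lower and SLC7A1, and above them for SLC38A4 and SLC7A2. For SLC38A2, overexpression replicate 1 lies among the empty vector libraries, and replicates 2 and 3 lie below them.

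The lysosomal and mitochondrial carriers were not called with all libraries. SLC15A4, a lysosomal carrier of histidine and peptides, had 1291, 1080 and 1318 normalized counts with the empty vector and 1115, 1208 and 1251 with overexpression, which overlapped. SLC36A1, an exporter of small amino acids from the lysosome, had 648 to 792 and 595 to 683 (log2 fold change -0.18, SE 0.14). SLC36A4 had 1251, 1421 and 1879 with the empty vector and 1690, 1526 and 1930 with overexpression. It overlapped through empty vector replicate 3, and was called higher without that library (log2 fold change 0.36, DESeq2 adjusted p = 0.0223). SLC25A12 and SLC25A13, the aspartate and glutamate exchangers of the malate-aspartate shuttle, had log2 fold changes of 0.17 (SE 0.15) and 0.15 (SE 0.13). SLC25A12 had 950, 953 and 1275 normalized counts with the empty vector and 1128, 1186 and 1251 with overexpression, and was called higher without empty vector replicate 3 (0.0256) and in replicates 1 and 2 alone (0.0487). SLC25A13 had 3099, 2723 and 3429 against 3285, 3237 and 3769, and was called in no fit. SLC25A22, a mitochondrial glutamate carrier, also overlapped (log2 fold change 0.09, SE 0.13). Over the 24 uncalled carriers with a mean of 10 or more, log2 fold changes lay between -0.30 and 0.38.

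Levels of different carriers were compared as TPM, a share of all transcripts, for which reads are divided by the length of the gene's exons. In empty vector cells SLC7A5 was the most abundant at 1182 ± 262 TPM (SD, n = 3), followed by SLC1A5 at 613 ± 72.3, SLC3A2 at 464 ± 56.0 and SLC38A2 at 305 ± 24.8. For each of these 4 the range of mean ± SD lay clear of the next carrier's. SLC7A1 (133 ± 19.4) and SLC1A4 (117 ± 18.8) came next and did not differ beyond their spread, nor did SLC1A4 and SLC38A1 (95.2 ± 11.1). SLC43A3, SLC25A13, SLC1A1, SLC6A9, SLC7A11, SLC25A22 and SLC43A1 followed between 36.5 and 62.2 TPM. A further 7 carriers, from SLC6A15 (24.5) to SLC7A2 (8.90), came after these, and SLC38A4 lay at 0.282 ± 0.154 TPM. With the length of the longest transcript in place of all exons, SLC7A5 stayed first, and SLC3A2 and SLC1A5 changed places.

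With overexpression SLC7A5 remained first at 585 ± 115 TPM, SLC1A5 second at 402 ± 57.5, and SLC38A2 moved ahead of SLC3A2 with 280 ± 14.8 against 255 ± 36.8, a gap within their spread. The summed level of the 35 carriers was 3761, 3562 and 2848 TPM with the empty vector and 2345, 2365 and 1879 with overexpression. SLC7A5 made up 36.8%, 35.8% and 31.1% of that sum with the empty vector and 27.2%, 28.1% and 24.1% with overexpression. The share of SLC38A2 lay between 7.99% and 9.92% with the empty vector and between 11.8% and 14.1% with overexpression.

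**Figure D4:**
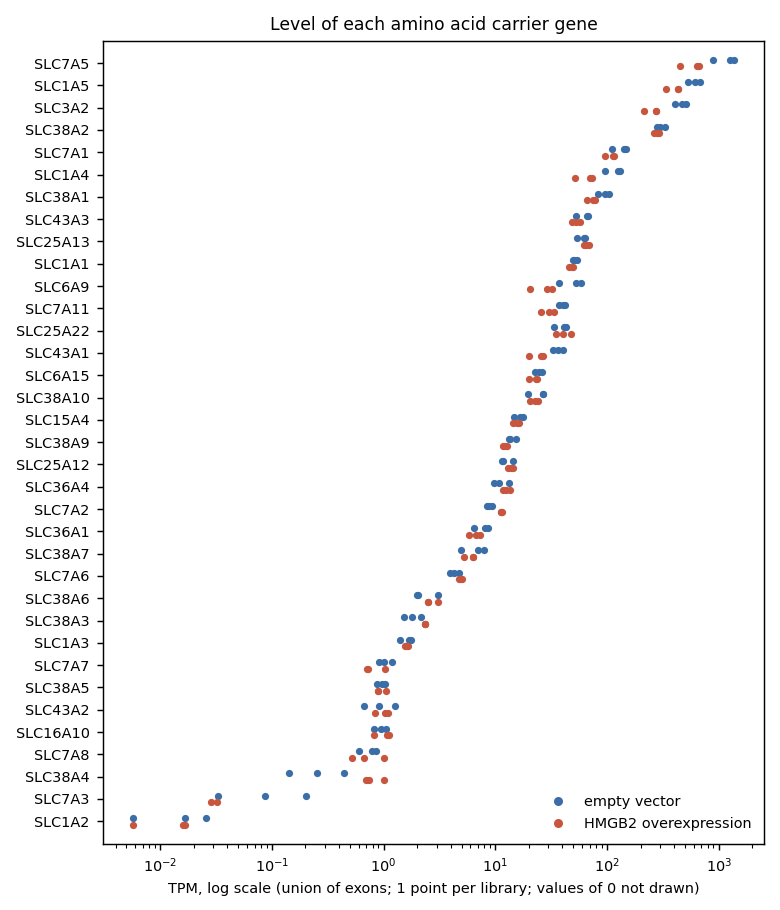
Level of each of the 35 carriers in TPM (x axis, log scale), with 1 point per library, ordered by the mean of the empty vector libraries. Means with the empty vector span from 1182 TPM for SLC7A5 to 0.0161 TPM for SLC1A2.

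The third replicates of the groups resembled each other and are shown with the other genes of the pathway. Deviations from the group means over 16692 genes correlated at 0.349 between the third replicates, against 0.0906 and 0.142 for replicates 1 and 2. Of the 8 carriers called lower, 7 were lowest in replicate 3 within the empty vector libraries and 8 within the overexpression libraries. How often replicate 3 was lowest over all genes was not counted, so this is not shown to be particular to these carriers. Taken within replicate numbers, all 8 were lower with overexpression in each, with median log2 differences of -0.66, -0.66 and -0.75 in replicates 1, 2 and 3. The groups of these 8 did not overlap, so that direction was fixed in advance. Without empty vector replicate 3, DESeq2 called 10 carriers lower and 4 higher, where 9.46% and 8.31% of all genes tested were called. With a term for the third replicates it called 10 and 2, against 8.61% and 8.71% of all genes. In replicates 1 and 2 alone it called 10 and 3, against 9.44% and 8.01%. Without empty vector replicate 1 it called 5 lower and 0 higher, against 1.13% and 0.839%. The edgeR fit called 6 lower and 0 higher, against 1.52% and 1.28%. Both TMM factors and the count minimum gave 8 and 2, against 2.64% and 2.24% for the former and 3.15% and 2.75% for the latter. SLC7A5, SLC3A2, SLC1A4, SLC1A5 and SLC6A9 were called lower in all 14 alternative fits, edgeR included.

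Genes of the amino acid response were read from the same fit. Of 27 genes on a list of the amino acid response, which holds ATF4, kinases upstream of it and known targets, 22 were called lower and 5 were not called (VLDLR, STC2, DDIT4, EIF2AK3 and EIF2AK4), with a median log2 fold change of -0.66. Over all genes tested, 2.64% were called lower and the median was 0.00. The list was written with earlier results of these data known. The 5 with the smallest adjusted p were TRIB3, NUPR1, MARS1, MTHFD2 and PHGDH. TRIB3, a pseudokinase induced by ATF4, had 29430, 25257 and 28817 normalized counts with the empty vector and 13628, 11905 and 9495 with overexpression, a log2 fold change of -1.25 (SE 0.15). PHGDH, the first enzyme of serine synthesis, had 45488, 42103 and 32809 against 21592, 20102 and 15684, a log2 fold change of -1.07 (SE 0.16). MARS1, a tRNA synthetase, NUPR1, a stress-induced chromatin protein, and MTHFD2, a mitochondrial folate enzyme, had log2 fold changes of -0.75, -2.38 and -0.83. MTHFD2 kept 57.3% of its stranded reads. ATF4 itself had 32208, 29993 and 31058 against 23320, 24068 and 22124, a log2 fold change of -0.42 with an SE of 0.09 (adjusted p = 0.000194, DESeq2). The kinases upstream were not called, with log2 fold changes of 0.10 for EIF2AK4, which encodes GCN2, and 0.14 for EIF2AK3, which encodes PERK. The element TGATGNAA occurred in the windows of 8 of the 24 list genes that had one, and in 4.46% of all genes.

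Medians per library were taken for the carriers called lower and for this list. The median log2 difference from the mean of the 6 libraries for the 8 carriers was 0.46, 0.37 and 0.18 with the empty vector, in replicate order, and -0.17, -0.29 and -0.54 with overexpression. For the 27 list genes it was 0.38, 0.35 and 0.24, then -0.24, -0.31 and -0.47. The 24 uncalled carriers lay between -0.04 and 0.02 in all libraries. The 8 were picked by their calls in this contrast, so their medians restate those calls.

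**Figure D5:**
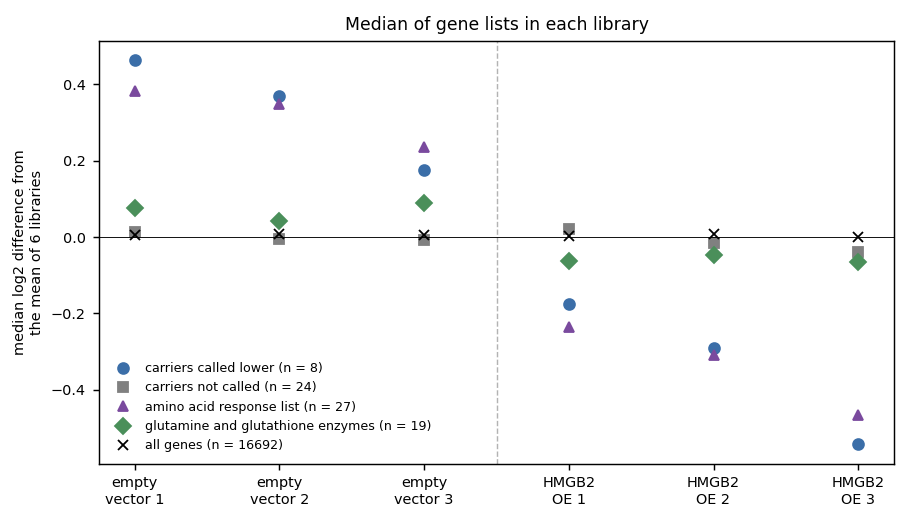
Median log2 difference from the mean of the 6 libraries (y axis) for each library (x axis), over the carriers called lower, the carriers not called, the amino acid response list, the glutamine and glutathione enzymes and all genes. The carriers called lower lie between 0.18 and 0.46 with the empty vector and between -0.54 and -0.17 with overexpression, and the amino acid response list between 0.24 and 0.38 and between -0.47 and -0.24.

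Enzymes that use the carried amino acids gave 6 lower calls among 20 tested genes of a list of 21 for glutamine, glutamate, cysteine and glutathione, with a median log2 fold change of -0.13. The share called lower over all genes tested was 2.64%. PYCR1, an enzyme of proline synthesis, had 12154, 10590 and 10588 normalized counts with the empty vector and 6571, 6195 and 5161 with overexpression. This was a log2 fold change of -0.89 (SE 0.13), and PYCR1 kept 76.2% of its stranded reads. CTH and CBS, which make cysteine from homocysteine, had log2 fold changes of -0.68 (SE 0.13) and -1.17 (SE 0.23). GPT2 and GOT1, transaminases that work on glutamate, had -0.65 and -0.42, and BCAT1, which acts on branched-chain amino acids, had -0.36. GCLC and GCLM, the subunits of the enzyme that starts glutathione synthesis, had -0.02 and 0.05 and were not called.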

How the data were processed

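Poly(A) RNA of 3 empty vector and 3 HMGB2-overexpressing A375 pellets was sequenced. Per the submitters' processing notes, reads were handled with bcl2fastq 2.20, FastQC and Trimmomatic and aligned with STAR to GRCh38; the STAR version and the annotation are not given in the sources used here. The authors deposited read counts per gene for each library, in an unstranded column and a column for each strand. The unstranded counts were used, with 4 summary lines set aside: multimapped reads were 2.58% to 10.6% of the total per library (highest in overexpression replicate 3) and reads shared between genes 10.7% to 11.4%. Reads shared with an overlapping gene are lost from the unstranded counts, which is given beside a gene as the share it kept of its summed stranded reads. On the first strand lay 50.1% to 50.2% of the stranded reads per library, so strand does not tell overlapping genes apart. The stranded sum of a gene can therefore include reads of a gene on the opposite strand. Of 58302 identifiers, 57532 matched GENCODE 44.

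All genes were fitted with DESeq2 1.42.0 (R 4.3.3, default Wald test, Benjamini-Hochberg adjustment), as in the study's methods. TPM used the union of exons. Ratios were tested with exact permutation tests (SciPy 1.17.1). On simulated counts the fit recovered the sizes of planted changes. Part of these changes were not called, so a carrier without a call is not shown to be unchanged. A larger share of the fit's calls was false than the threshold of 0.05 states, so calls near the threshold are the less certain. The simulated libraries held no shift shared by the third replicates. Alternatives were edgeR 4.0.16, TMM factors, a minimum of 10 counts in 3 libraries, no independent filter, summed stranded counts, the replicate number as a block, a term for the third replicates, replicates 1 and 2 alone, and leaving out each library. Genes described in full were those called in any fit, SLC3A2 and the most abundant member of each family, and of the other lists the called genes, up to 5 by adjusted p. ATF4 and the other genes named beyond this rule were chosen after their values were seen. The members and lists were chosen with earlier results of these data known.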

Additional observations from a re-analysis of the deposited data

Results flagged for a closer look

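Reads that fell on both SLC25A22 and a gene on the opposite strand, PANO1, are not part of the unstranded counts and were not used in the comparison. After normalization these set-aside reads of SLC25A22 averaged 410 in the overexpression libraries (421, 423 and 387) and 345 in the empty vector libraries (355, 374 and 308). They are listed because the lowest overexpression value exceeded the highest empty vector value. The difference was not tested, and whether the reads came from SLC25A22 or PANO1 cannot be told. Set-aside reads of other carriers separated in the opposite direction, from 5523 to 8242 against 2443 to 3725 for SLC7A5, 12012 to 13884 against 8197 to 10038 for SLC1A5, 685 to 776 against 537 to 653 for SLC7A11, and 1147 to 1216 against 1105 to 1145 for SLC7A6, with the empty vector first.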

How the results depend on the processing

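Of 465 comparisons of a carrier with an alternative fit, 430 kept their side of the threshold, 19 lost the call, 16 gained one and 0 turned direction with a call. Values near 0 that were never called, such as those of SLC7A8 and SLC1A3, changed sign between fits. DESeq2 called 8 carriers lower and 1 higher, and 498 and 432 of all genes. Carriers called higher numbered 0 under edgeR, 2 with TMM factors, 2 with the count minimum, 2 with the third-replicate term and 3 in replicates 1 and 2 alone. Of all genes, edgeR called 255 lower and 215 higher, the third-replicate term 1359 and 1374, and replicates 1 and 2 alone 1418 and 1203. Leaving out 1 library gave 5 to 10 carriers lower and 0 to 4 higher, and 208 to 1520 and 155 to 1334 of all genes. The lowest counts came without empty vector replicate 1 and the highest without empty vector replicate 3. The replicate numbers were not taken to pair the libraries: deviations of same-numbered libraries correlated at 0.0906, 0.142 and 0.349, so the third replicates deviated together and the first did not pass 0.1. With the replicate block, 9 of 33 carriers tested were called lower and 2 higher, SLC7A1 (DESeq2 adjusted p = 0.00168) and SLC7A2 (0.00491) among them. Of all 14552 genes tested in that fit, 940 were called lower and 886 higher. Empty vector replicate 1 correlated best with overexpression replicate 2 (0.212), so not every library correlated best with its own number. With summed stranded counts the summed level was 2853 TPM with the empty vector and 1848 TPM with overexpression, against 3390 and 2197. The cause of these shifts was not tested. With 48 and 142 reads, SLC38A4 is limited by depth.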

Other observations

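Genes outside the carrier set gave few calls among those that sense amino acids at the lysosome. Of 34 tested genes on that list, SESN2 was called lower and SESN3 higher, both sestrins, of which SESN2 is known as a leucine sensor upstream of mTORC1. Shares over all genes tested were 2.64% lower and 2.29% higher. SESN2 had 5115, 4853 and 4161 normalized counts with the empty vector and 2948, 3063 and 2345 with overexpression (log2 fold change -0.76, SE 0.14, DESeq2 adjusted p = 9.9e-06). SESN3 had 197, 211 and 261 against 342, 355 and 351 (log2 fold change 0.65, SE 0.16, DESeq2 adjusted p = 0.00321). Neither pair of groups overlapped. Among 22 tested genes of a list of 40 further amino acid carriers, MFSD12, a lysosomal and melanosomal cysteine carrier, was called lower. It had 9275, 7662 and 6797 against 5338, 5667 and 4313 (log2 fold change -0.63, SE 0.15, DESeq2 adjusted p = 0.00205). MFSD12 kept 49.98% of its stranded reads.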
